A study of Mus musculus with 36 samples.

Results

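The genes described here are 8 integrin subunits that epidermal cells use when they leave their niche and crawl over a wound: Itga2, Itga5, Itga9, Itgav, Itgb1, Itgb5, Itgb6 and Itgb8. They were chosen by name, and are 8 of the 23903 genes listed in either of the count tables of genetically labelled (GL) hair follicle cells. The table of Lrig1 GL cells lists 7 of them among its 20181 genes, because Itga9 is not listed there, and the table of Lgr5 GL cells lists all 8 among 22587 genes. The data are 36 mini-bulk RNA-seq libraries, each made from 150 sorted tdTomato+ cells, with 18 per population and 3 at each of 6 time points. The mice carried an inducible Cre recombinase (EGFP-ires-CreERT2) under the control of the Lrig1 or the Lgr5 gene and a Rosa26 reporter, in which Cre removes a floxed stop before tdTomato. A single topical dose of hydroxytamoxifen at 6 to 8 weeks of age marked the cells that expressed the driver gene at that time, together with all their later progeny. The Lrig1 driver marks stem cells of the junctional zone of the upper follicle, and the Lgr5 driver marks stem cells of the lower follicle. The groups were homeostatic tail skin (0w, 1 week after labelling, at 7 to 9 weeks of age), skin 1, 2, 4 and 8 weeks after a first full-thickness wound (1w, 2w, 4w and 8w pw1), and skin 1 week after a second wound on the same site, made at 8 weeks (1w pw2). All groups, 0w included, carried the driver, the reporter and the hydroxytamoxifen treatment. No unwounded group of the later ages is among these libraries. Wounding, age and time since labelling therefore cannot be told apart in comparisons with 0w. A sorted library mixes labelled cells from all positions in the collected skin, and each is a bulk measurement, in which fewer cells of a type and less RNA per cell cannot be told apart.

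Integrins are cell surface receptors made of an alpha and a beta subunit, and the pair decides which matrix protein is bound. Itgb1 encodes the beta subunit shared by the collagen receptor (with Itga2), the main fibronectin receptor (with Itga5) and a tenascin receptor (with Itga9), and in resting epidermis it is a component of the adhesions of basal cells. Itgav encodes an alpha subunit that pairs with the products of Itgb5 (a vitronectin receptor), Itgb6 (an epithelial receptor for fibronectin and tenascin that releases active TGF-beta from its latent form) and Itgb8 (which also activates latent TGF-beta), and with that of Itgb1. Keratinocytes at a wound edge are known to switch towards fibronectin and tenascin receptors while they migrate.

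On the GRCm38 build, with the annotation of GENCODE release M21, all 8 are protein-coding genes. Itgb1 lies at chr8:128685654-128733200 and Itgav at chr2:83724397-83806916, both on the plus strand. Itga9 (chr9:118606690-118901003) and Itgb5 (chr16:33829665-33949338) are on the plus strand too, and Itga2 (chr13:114833081-114932100), Itga5 (chr15:103344286-103366763), Itgb6 (chr2:60598292-60722643) and Itgb8 (chr12:119158022-119238802) are on the minus strand. Exons of Itgav overlap those of the predicted gene Gm13684. The counting options that the study lists name none for strand. How reads of the shared stretch were assigned is not stated, so their effect on the Itgav counts is not known. Itgb1 and Itgav are the members with calls in Lrig1 GL cells in what follows, and the 250 bases before the start of each, from RefSeq on GRCm38.p6, are shown to let their promoters be compared. The Itgb1 stretch is chr8:128685404-128685653 and the Itgav stretch chr2:83724147-83724396, both on the plus strand. Capitals mark matches, on either strand, to 4 motifs that were searched. These were the AP-1 motif, spelled TGANTCA, which factors of the Fos and Jun families bind, the TEAD motif, searched as the core letters GGAATG, the Sp1 motif, searched as GGGCGG, and the TATA box, searched as TATAAA.
Itgb1: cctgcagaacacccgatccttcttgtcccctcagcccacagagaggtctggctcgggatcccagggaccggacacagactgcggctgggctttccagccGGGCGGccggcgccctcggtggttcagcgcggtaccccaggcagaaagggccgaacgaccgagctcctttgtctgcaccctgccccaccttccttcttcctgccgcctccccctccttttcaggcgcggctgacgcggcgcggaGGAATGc
Itgav: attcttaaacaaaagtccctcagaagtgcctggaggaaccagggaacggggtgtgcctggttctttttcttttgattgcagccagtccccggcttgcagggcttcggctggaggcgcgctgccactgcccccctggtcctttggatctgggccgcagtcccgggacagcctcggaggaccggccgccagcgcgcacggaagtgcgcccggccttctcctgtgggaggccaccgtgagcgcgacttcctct
Guanine and cytosine (GC) make up 68% of the Itgb1 stretch and 64.4% of the Itgav stretch, against a median of 52.4% over all 32851 stretches of this length. In the Itgb1 stretch the first capitals are the Sp1 letters and the last are the TEAD letters, and the Itgav stretch holds none of the 4 motifs. The TEAD letters are in 12.6% of all stretches and in 1 of the 8 member genes, Itgb1. The Sp1 letters are in 32.7% of all and in 3 members, Itga5, Itgb1 and Itgb5. No member holds the AP-1 letters, which are in 6.75% of all, or the TATA letters, which are in 12.4%. The stretches of Itga9 (chr9:118711442-118711691) and Itgb8 (chr12:119238277-119238526) lie inside the genes as located above. Itgb6 was searched at chr2:60722604-60722853 and at chr2:60673694-60673943, of which the latter lies inside the gene. These do not stand before the gene start given above. A match is a description of the letters and no match says only that they are not in this window.

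The libraries held 765252 to 3365666 counts in Lrig1 GL cells (median 1930063) and 1297798 to 6960537 in Lgr5 GL cells (median 4284763). On the scale of the CPM given here (counts scaled to a common library total, with TMM factors), 3 counts equal 1.01 to 3.39 CPM in the first. They equal 0.389 to 2.92 CPM in the second. The keratinocyte markers were high in every library, with a summed level of 27553 to 37702 CPM in Lrig1 GL and 12264 to 39620 CPM in Lgr5 GL cells. Each of the 8 passed 3 counts in some library of every group. The driver genes were in place at 0w: Lrig1 averaged 217 ± 30.8 CPM (SD, n = 3) in the Lrig1 GL and 78.6 ± 40.4 in the Lgr5 GL libraries, and Lgr5 averaged 137 ± 112 and 438 ± 101 CPM in them. The 8 fibroblast markers summed to 7.50 to 116 CPM in Lrig1 GL cells, where Lum and Pdgfrb are not listed, and to 129 to 612 CPM in Lgr5 GL cells, where Vim was the highest. Leukocyte markers summed to 0 to 34.1 and 0.361 to 52.0 CPM in the 2 populations, with 8 and 7 of 12 not listed, melanocyte markers to 4.08 to 55.4 and 9.79 to 81.6 CPM, and endothelial markers to at most 18.2 and 19.8 CPM. A single RNA, Gm12415, took 12.04 to 52.1% of the counts of the Lgr5 GL libraries and at most 0.000212% of those of the Lrig1 GL libraries. Mitochondrial genes took 10.9 to 14.4% of the counts in the 3 Lrig1 GL libraries of 8w pw1, 3.15 to 8.99% in the other Lrig1 GL libraries and 1.19 to 3.64% in Lgr5 GL libraries. The labels name the libraries of a group only as replicates, and the study's legends count them as mice, so p-values measure the spread between the mice of a group.

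The beta subunits Itgb1 and Itgb5 led the mean levels. Per kilobase of exon, Itgb1 was the highest of the members in 11 of the 12 groups, with a mean over the 18 libraries of Lrig1 GL of 69.6 CPM per kb and over those of Lgr5 GL of 51.7. Itgb5 followed with 24.0 and 28.0 CPM per kb, and Itgav with 17.2 and 7.90. In Lgr5 GL cells at 8w pw1, Itgb5 (34.5 CPM per kb) stood ahead of Itgb1 (32.6), but their libraries overlapped. In Lrig1 GL cells Itgav took the second place from Itgb5 at 8w pw1, with 33.8 against 26.8 CPM per kb, and at 1w pw2, with 27.2 against 13.5. At 8w pw1 the libraries of Itgav and Itgb5 overlapped and at 1w pw2 they did not. At 0w in Lrig1 GL cells every pair of neighbours in the order overlapped, whereas at 0w in Lgr5 GL cells Itgb1, Itgb5, Itgav and the next, Itga5, followed each other without overlap.

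The remaining members were lower. Itga2 stood at 8.35 (Lrig1 GL) and 3.59 CPM per kb (Lgr5 GL), Itgb8 at 7.38 and 3.45, and Itgb6 at 3.31 and 1.81. Itga5, the subunit of the fibronectin receptor, was at 2.83 and 4.36 CPM per kb. Itga9 was the lowest of all in each Lgr5 GL group and rested on 2 to 8 counts in a library, 99 in all.

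**Figure D1:**
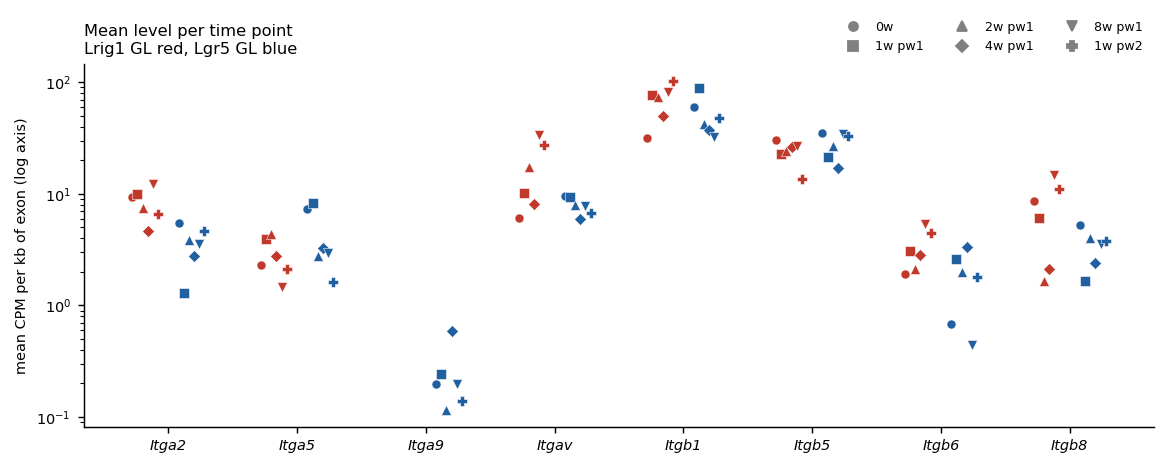
Level of each integrin gene per kilobase of exon in the 12 groups (CPM per kb, log axis; symbols are group means of 3 libraries by time point, Lrig1 GL in red and Lgr5 GL in blue). Itgb1 and Itgb5 stand above the other genes in most groups, Itgav rises above Itgb5 in Lrig1 GL cells at 8w pw1 and 1w pw2, and Itga9 lies lowest in Lgr5 GL cells.

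To follow the shared beta subunit through both wounds, Itgb1 was compared between time points. In Lrig1 GL cells it was at 72.9, 153 and 165 CPM at 0w, at 271, 282 and 381 CPM at 1w pw1, and at 292, 298 and 319 CPM at 2w pw1. It was at 129.95, 161 and 322 CPM at 4w pw1, at 282, 329.8 and 389.7 CPM at 8w pw1, and at 243, 498 and 524 CPM at 1w pw2. All libraries of 1w, 2w and 8w pw1 and of 1w pw2 were above the highest of 0w, whereas those of 4w pw1 overlapped with 0w. Against 0w the log2 fold change was 1.69 (SE 0.39) at 1w pw2, with an adjusted p of 0.0398 (edgeR's quasi-likelihood test, Benjamini-Hochberg), and Itgb1 rose there. At the other times it did not pass the test, with 1.26 (SE 0.38, adjusted p 0.211 by edgeR) at 1w pw1, 1.22 (SE 0.38, adjusted p 0.293) at 2w pw1 and 1.36 (SE 0.38, adjusted p 0.0595) at 8w pw1. Leaving out 1 of the 18 libraries in turn kept the call in 4 cases, without replicate c of 2w pw1, a or c of 4w pw1 or 1 of 1w pw2, and ended it in the other 14, with log2 fold changes of 1.41 to 1.90 and adjusted p of 0.0524 to 0.203 by edgeR. With 2 surrogate variables the value was 1.02 (adjusted p = 0.419 by edgeR), and the call ended.

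In Lgr5 GL cells Itgb1 took another course. It was at 208, 253 and 278 CPM at 0w, at 235, 289 and 574 CPM at 1w pw1, and at 131, 187 and 198 CPM at 2w pw1. It then was at 139, 153 and 163 CPM at 4w pw1, at 118, 136 and 146 CPM at 8w pw1, and at 186, 192 and 211 CPM at 1w pw2. All libraries of 2w, 4w and 8w pw1 lay below the lowest of 0w, those of 1w pw1 and 1w pw2 overlapped with 0w, and 1 library of 1w pw1 stood far above the rest. Between 1w and 4w pw1 Itgb1 fell by 1.27 on the log2 scale (SE 0.30, adjusted p = 0.0346 by edgeR), against a median of 0.11 over all genes. Without replicate 1 of 1w pw1, the highest library, the value was -0.80 with an adjusted p of 0.129. The call also ended without replicates b or c of 4w pw1, b of 8w pw1 or 3 of 1w pw2, with values of -1.29 to -1.23 and adjusted p of 0.0509 to 0.127 by edgeR. The keratinocyte markers summed to 29039 to 37987 CPM at 1w pw1 and to 12264 to 15529 CPM at 4w pw1. Of these 8 genes, 4 fell between these times (Krt5, Krt14, Krt15 and Perp), where 3.15% of all genes were called. The other 4 had log2 fold changes above 0, and the part of the markers in the result was not tested. Against 0w no time passed the test, with -0.89 (SE 0.29, adjusted p 0.696 by edgeR) at 8w pw1.

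Itgav, the alpha subunit of the TGF-beta activating receptors, changed in Lrig1 GL cells. It was at 13.9, 77.5 and 104 CPM at 0w, at 68.8, 109.7 and 149 CPM at 1w pw1, and at 61.7, 100.1 and 405 CPM at 2w pw1. It was at 81.9, 86.1 and 93.8 CPM at 4w pw1, at 309, 348 and 434 CPM at 8w pw1, and at 229, 269.9 and 377 CPM at 1w pw2. Every library of 8w pw1 and of 1w pw2 lay above all libraries of 0w, 1w pw1 and 4w pw1, and the only other high value was 1 library of 2w pw1. At 8w pw1 the mean was 364 ± 63.8 CPM (SD, n = 3) against 65.0 ± 46.1 at 0w, a log2 fold change of 2.48 (SE 0.65, adjusted p = 0.0479 by edgeR), and Itgav rose there. At 1w pw2 the log2 fold change was 2.17 (SE 0.64, adjusted p = 0.0949 by edgeR), which did not pass. The lowest library of 0w, replicate 1, held 27 counts, and without it the value at 8w pw1 was 2.01 with an adjusted p of 0.117. The call remained without replicate 2 of 0w or without any 1 of the 2w pw1 libraries, and ended in the other 14 of 18 cases, with adjusted p up to 0.117 by edgeR. With 2 surrogate variables it was 0.51 (adjusted p = 0.888 by edgeR), and the call ended.

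Markers of the bulge and lower follicle were lower than at 0w at every later time in Lrig1 GL cells. Their summed level, over Lgr5, Cd34, Sox9, Lhx2 and Krt75, was 1344 to 2358 CPM at 0w, 612 to 865 CPM at 8w pw1 and 276 to 583 CPM at 1w pw2, and it was 341 to 1048 CPM at the times between. All 5 had log2 fold changes below 0 against 0w at each later time. Their medians were -2.31, -2.33 and -1.75 at 1w, 2w and 4w pw1, -1.41 at 8w pw1 and -1.82 at 1w pw2. The medians over all genes at these times ran from -0.06 to -0.01. None was called at 8w pw1 (1 at an unadjusted p under 0.05 by edgeR), where 2.82% of all genes were. Sox9 fell at 1w pw2, by 1.90 (adjusted p = 0.0362 by edgeR), as 1 of 5 called, where 1.23% of all genes were. The junctional zone markers Lrig1 and Plet1 summed to 296 to 359 CPM at 0w and to 101 to 312 CPM at 1w to 4w pw1. They were at 137 to 222 CPM at 8w pw1 and at 154 to 226 CPM at 1w pw2. Of the 8 keratinocyte markers, 1 was called at 8w pw1, as higher, and 6 had an unadjusted p under 0.05 by edgeR. At 1w pw2, 1 was called as higher and 1 as lower, and 5 had an unadjusted p under 0.05 by edgeR. The part of any of these sets of markers in the changes of Itgav and Itgb1 was not tested.

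All 18 libraries of Lgr5 GL cells had Itgav between 52.3 and 125 CPM. At 0w it was at 89.7, 92.8 and 125 CPM, at 8w pw1 at 76.0, 78.2 and 98.5 CPM, and at 1w pw2 at 52.3, 68.3 and 96.5 CPM. The groups of 8w pw1 and 1w pw2 overlapped with 0w, and those of 4w pw1, at 54.1, 56.5 and 81.7 CPM, lay below it. The log2 fold change at 8w pw1 was -0.28 (SE 0.30), and at 4w pw1 -0.68 (SE 0.30, adjusted p 0.428 by edgeR).

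Over all genes, the changes in Lrig1 GL cells at 8w pw1 and 1w pw2 were correlated with base composition. Across 14252 genes, which are not independent replicates, the change from 0w to 8w pw1 had a Spearman correlation of -0.502 with the GC content of the longest transcript. The median log2 fold change was 0.96 over the 4127 genes under 45% GC and -0.76 over the 2735 genes above 55%. Itgav (43.5% GC) and Itgb1 (44.8%) belong to the first group, as do Itga2, Itgb6 and Itgb8, while Itga5 (57.3%) and Itgb5 (57.0%) belong to the second. At 1w pw2 the correlation was -0.444, with medians of 0.76 and -0.68 in these GC classes, and at 1w, 2w and 4w pw1 it was -0.111, -0.159 and -0.0352. With this trend removed, Itgav at 8w pw1 was at 1.68 (adjusted p = 0.139 by edgeR) and Itgb1 at 1w pw2 at 1.13 (adjusted p = 0.147), so that both calls ended. The cause of the trend was not tested. For Lgr5 GL cells the correlations with the change from 0w ran from -0.155 to 0.0598.

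**Figure D2:**
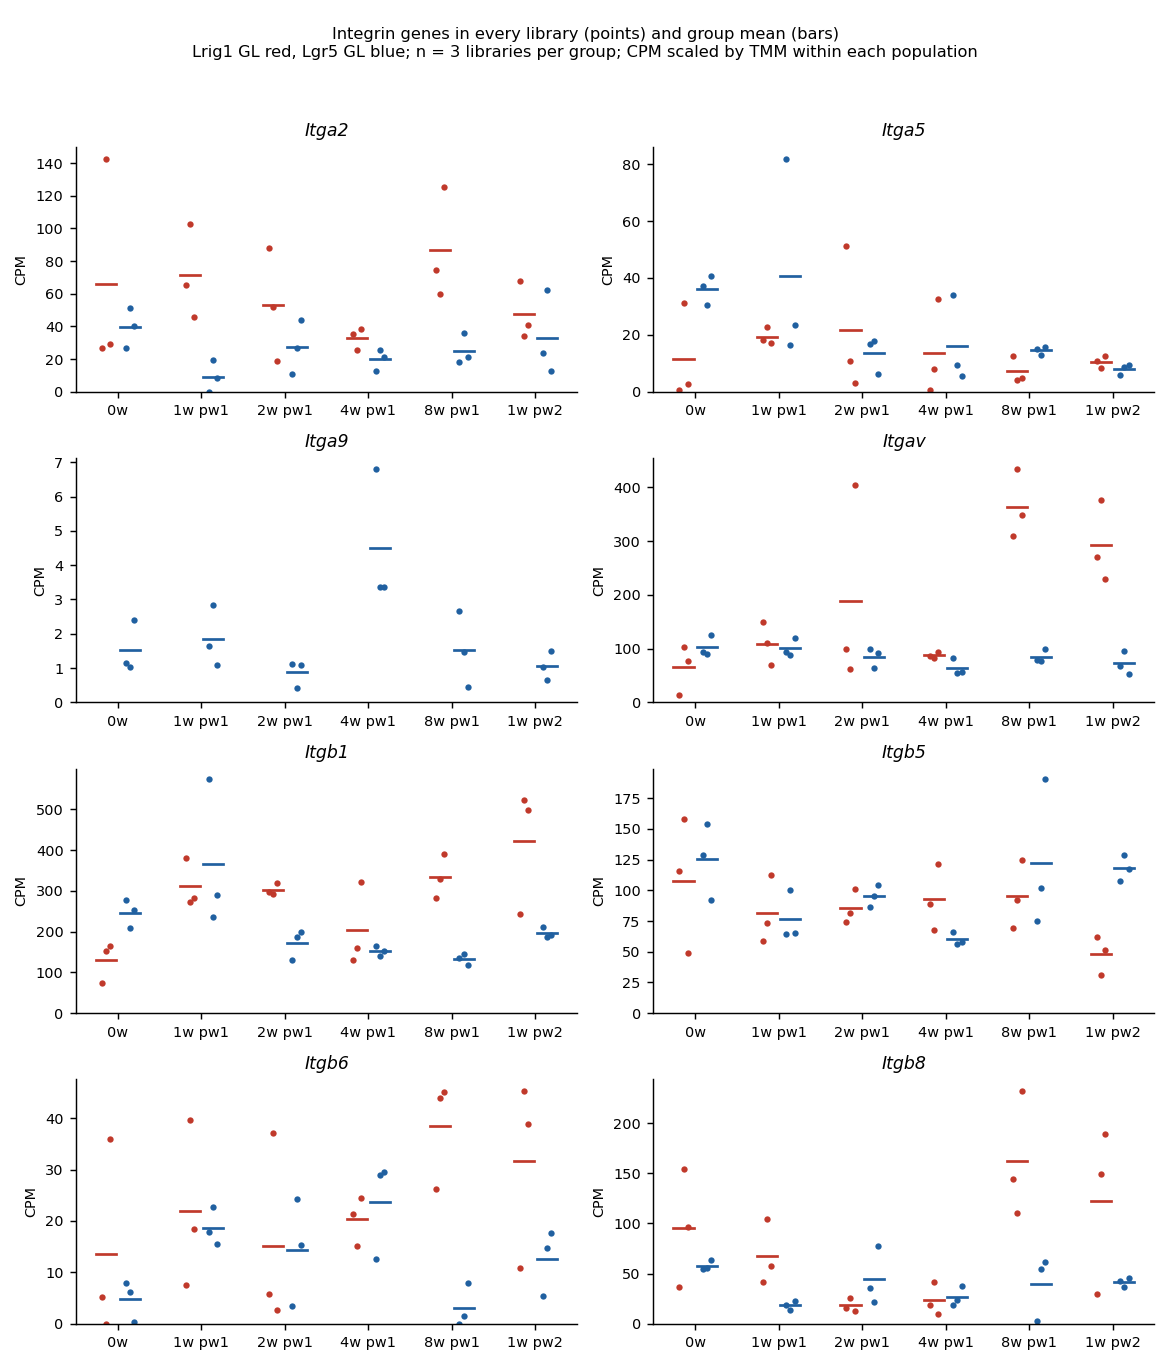
Level of each integrin gene in every library (CPM scaled by TMM within each population), by time point, with Lrig1 GL in red and Lgr5 GL in blue (points are libraries, bars the means of 3). Itgav in Lrig1 GL cells lies between 229 and 434 CPM at 8w pw1 and 1w pw2 and at most at 104 CPM at 0w, and Itga9 has values in Lgr5 GL cells alone because it is not listed for Lrig1 GL.

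Itgb5, Itgb6 and Itgb8, which pair with Itgav, showed no call over time. Itgb8 in Lrig1 GL cells was at 36.4, 96.7 and 154 CPM at 0w, at 12.8, 16.1 and 25.8 CPM at 2w pw1, and at 111, 144 and 232 CPM at 8w pw1. The libraries of 2w pw1 were all below those of 0w, and those of 8w pw1 overlapped with 0w. The change to 2w pw1 was -2.40 on the log2 scale (SE 0.68, adjusted p = 0.247 by edgeR) and that to 4w pw1 -2.05 (SE 0.68, adjusted p = 0.453). The Lgr5 GL libraries had Itgb8 at 54.7, 55.8 and 63.4 CPM at 0w and at 13.6, 18.9 and 22.8 CPM at 1w pw1. These groups did not overlap, with a log2 fold change of -1.64 (SE 0.67, adjusted p = 0.198 by edgeR), and at 8w pw1 a library with 3.09 CPM stood beside others with 54.1 and 61.6 CPM.

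Itgb5, the vitronectin receptor subunit, was at 48.7, 116 and 158 CPM at 0w and at 31.1, 51.3 and 61.8 CPM at 1w pw2 in Lrig1 GL cells. The groups overlapped, with a log2 fold change of -1.17 (SE 0.43, adjusted p = 0.165 by edgeR). The Lgr5 GL libraries had Itgb5 at 92.4, 129 and 154 CPM at 0w and at 56.2, 57.8 and 66.1 CPM at 4w pw1. The 4w pw1 libraries were all lower, with a log2 fold change of -1.06 (SE 0.33, adjusted p = 0.241 by edgeR).

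Itgb6 varied widely between libraries. For Lgr5 GL it was at 0.345, 6.23 and 7.94 CPM at 0w, at 15.5, 17.9 and 22.6 CPM at 1w pw1 and at 12.6, 28.9 and 29.6 CPM at 4w pw1. Both later groups lay above 0w, with log2 fold changes of 1.92 (SE 1.02) and 2.27 (SE 1.04) and adjusted p of 0.319 and 0.445 by edgeR. At 8w pw1 the values were 0, 1.46 and 8.00 CPM, where a count of 0 allows up to 1.33 CPM in that library. In Lrig1 GL cells Itgb6 ran from 0 to 35.9 CPM at 0w and from 26.2 to 45.03 CPM at 8w pw1, so that the groups overlapped.

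Itga2, Itga5 and Itga9 showed no call over time either. Itga5 in Lgr5 GL cells was at 30.5, 37.2 and 40.7 CPM at 0w, at 16.4, 23.3 and 81.9 CPM at 1w pw1, at 12.9, 15.0 and 15.8 CPM at 8w pw1 and at 5.84, 8.83 and 9.41 CPM at 1w pw2. The libraries of 2w and 8w pw1 and of 1w pw2 were all below those of 0w. The log2 fold change at 1w pw2 was -2.17 against 0w (SE 0.68, unadjusted p = 0.00489 and adjusted p = 0.658 by edgeR) and -2.34 against 1w pw1 (SE 0.68, adjusted p = 0.119). The second of these passed in DESeq2 with an adjusted p of 0.0135. The summed fibroblast markers were 254 to 612 CPM at 0w, 279 to 418 CPM at 1w pw1 and 186 to 228 CPM at 1w pw2 in these libraries, and their part in the result was not tested. In Lrig1 GL cells Itga5 ran from 0.498 to 51.4 CPM, on 1 to 115 counts in a library, and every group overlapped with 0w.

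Itga2, the collagen receptor subunit, was at 26.5, 40.0 and 51.5 CPM at 0w and at 0, 8.49 and 19.2 CPM at 1w pw1 in Lgr5 GL cells. The count of 0 allows up to 0.979 CPM in that library. The groups did not overlap, with a log2 fold change of -2.13 (SE 0.90, adjusted p = 0.215 by edgeR). In Lrig1 GL cells Itga2 ran from 18.9 to 143 CPM and every group overlapped with 0w. Itga9 in Lgr5 GL cells was at 1.04, 1.13 and 2.41 CPM at 0w and at 3.35, 3.36 and 6.81 CPM at 4w pw1, with 5 to 8 counts in each of these libraries. The groups did not overlap, and the log2 fold change was 1.54 (SE 0.92, adjusted p = 0.584 by edgeR).

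**Figure D3:**
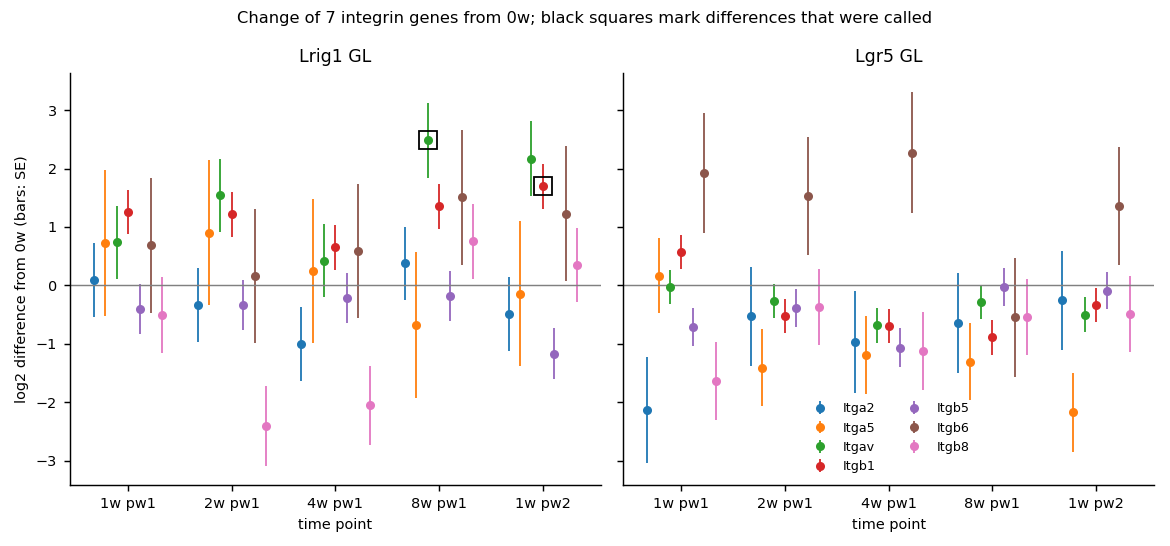
Log2 fold change of 7 integrin genes (all but Itga9) against 0w at the 5 later times in Lrig1 GL and Lgr5 GL cells (points, with bars of 1 SE, from edgeR; squares mark calls). The calls are Itgav at 8w pw1 and Itgb1 at 1w pw2, both in Lrig1 GL cells, and none of the Lgr5 GL changes is a call.

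Counted over the members, the time course test, which asks whether any of the 5 later times differs from 0w, called 0 of 7 in Lrig1 GL cells (thresholds: adjusted p of 0.05, absolute log2 change of 1), where 1.63% of the 14306 genes tested were called. It called 0 of 8 in Lgr5 GL cells, where 1.13% of 18025 genes were called. By edgeR's quasi-likelihood test 3 members had an unadjusted p under 0.05 in each population. The lowest adjusted p were 0.0558 for Itgb8, 0.0866 for Itgav and 0.103 for Itgb1 in Lrig1 GL cells, and 0.0578 for Itgb1 in Lgr5 GL cells. DESeq2 and edgeR's likelihood ratio test each called Itgav, Itgb1 and Itgb8 in Lrig1 GL and Itga5 in Lgr5 GL cells, and limma-voom called none in either.

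Against 0w, the 7 members of Lrig1 GL cells gave 35 comparisons, of which 2 were calls and 10 had an unadjusted p under 0.05. None was called at 1w pw1 (background 0.217% of genes called), at 2w pw1 (0%) or at 4w pw1 (0.0419%), where 1, 3 and 1 members had an unadjusted p under 0.05 by edgeR. At 8w pw1 the call was Itgav (background 2.82%), and at 1w pw2 it was Itgb1 (1.23%). At 8w pw1 5 of 7 members had a positive log2 fold change with a median of 0.76, against -0.01 over all genes. At 1w pw2 the median was 0.35 against -0.06. Over the genes under 45% GC, to which Itga2, Itgav, Itgb1, Itgb6 and Itgb8 belong, the medians at these times were 0.96 and 0.76. DESeq2 added calls for Itgb1 at 1w and 8w pw1, Itgb8 at 2w pw1 and Itgav at 1w pw2.

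All 3 libraries of Itgb1 lay above 0w at 1w pw1, where 7.51% of genes did so, and at 2w pw1, where 6.1% did. Itgb8 alone lay below 0w at 2w pw1, against 5.25% of genes. At 8w pw1 Itgav and Itgb1 lay above, against 14.8% of genes, and at 1w pw2 the same pair did, against 13.9%. At 4w pw1 no member stood apart from 0w.

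In Lgr5 GL cells 0 of 40 comparisons against 0w were called by edgeR's quasi-likelihood test, 10 had an unadjusted p under 0.05, and DESeq2, edgeR's likelihood ratio test and limma-voom called 0 as well. The share of all genes called was 1.29% at 1w pw1, 0% at 2w pw1, 0.155% at 4w pw1, 0% at 8w pw1 and 0% at 1w pw2. The median over the members was 0.07 at 1w pw1, -0.45 at 2w pw1, -0.83 at 4w pw1, -0.54 at 8w pw1 and -0.41 at 1w pw2, against medians of -0.08 to 0.03 over all genes. At 8w pw1 all 8 values were below 0.

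The members apart from 0w at 1w pw1 were Itgb6 above (9.98% of genes) and Itga2 and Itgb8 below (9.8%). At 4w pw1 they were Itga9 and Itgb6 above (6.62%) and Itga2, Itgav, Itgb1, Itgb5 and Itgb8 below (7.79%). Itga5 and Itgb1 were below at 2w pw1 (5.73%) and at 8w pw1 (4.7%), and Itga5 and Itgb8 at 1w pw2 (5.33%). The 4w pw1 libraries held 1297798 to 2116933 counts, against a median of 4284763 over this population, and the part of depth in these counts was not tested.

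The second wound was set against the first. Between 1w pw2 and 1w pw1, 0 of 7 members were called in Lrig1 GL cells (background 0%), 1 having an unadjusted p under 0.05 by edgeR, and DESeq2, the likelihood ratio test and limma-voom called none. The largest difference was that of Itgav, at 1.42 (SE 0.63, adjusted p = 0.519 by edgeR). For Lgr5 GL 0 of 8 were called (background 0.266%) and 2 had an unadjusted p under 0.05 by edgeR, Itga5, which DESeq2 and the likelihood ratio test called, and Itgb1 at -0.90 (SE 0.29, adjusted p = 0.155); limma-voom called none.

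Between 1w pw2 and 8w pw1, the time of the second wound, 0 members were called for Lrig1 GL (background 0.00699%) and 0 for Lgr5 GL (0%), with 1 and 0 at an unadjusted p under 0.05 by edgeR and none called by the other 3 tools. Itgav differed by -0.32 (SE 0.61) and Itgb1 in Lgr5 GL cells by 0.56 (SE 0.29). Between 4w and 1w pw1, 0 of 7 were called in Lrig1 GL cells (background 0%), 1 had an unadjusted p under 0.05 by edgeR, and the other 3 tools called none. For Lgr5 GL 1 of 8 was called, Itgb1, where 3.15% of all genes were.

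Whether the populations changed differently was tested in a fit of all 36 libraries over the 13980 genes kept in both tables, among them 7 members. From 0w to 8w pw1 the change of Itgav in Lrig1 GL exceeded that in Lgr5 GL cells by 2.80 on the log2 scale (SE 0.71, adjusted p = 0.0402 by edgeR), and that of Itgb1 by 2.27 (SE 0.48, adjusted p = 0.0201), where 1.51% of genes were called. For both genes the 3 Lrig1 GL libraries of 8w pw1 lay above those of 0w, as they did for 14.8% of genes. In Lgr5 GL cells they overlapped with 0w for Itgav and lay below it for Itgb1, as for 4.7% of genes. At 1w pw2 the differences were 2.69 (SE 0.71, adjusted p = 0.0867 by edgeR) and 2.04 (SE 0.48, adjusted p = 0.0579), which did not pass.

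None of the members was called in the other differences of change, at 1w pw1 (background 0.0572%), 2w pw1 (0%), 4w pw1 (0.114%), 1w pw2 (0.193%) or between the 2 wounds (0.107%), where 0, 3, 1, 3 and 4 of 7 members had an unadjusted p under 0.05 by edgeR. DESeq2 and edgeR's likelihood ratio test called Itgav and Itgb1 at 1w pw2, and limma-voom added no call. The GC content of genes had a Spearman correlation of -0.460 with the difference at 8w pw1. With the GC trend removed the values were 1.99 for Itgav (adjusted p = 0.165 by edgeR) and 1.599 for Itgb1 (adjusted p = 0.123), and both calls ended. Without replicate 1 of Lrig1 GL at 0w the value of Itgb1 was 1.99 (adjusted p = 0.0564 by edgeR), and without replicate a of Lgr5 GL at 8w pw1 it was 2.30 (adjusted p = 0.0536), and no other library ended its call. The call of Itgav ended without any 1 of 11 libraries, replicates 1 and 3 of Lrig1 GL at 0w, the 3 of Lgr5 GL at 0w and the 6 of 8w pw1, with 2.32 to 2.94 and adjusted p of 0.0514 to 0.0942 by edgeR.

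**Figure D4:**
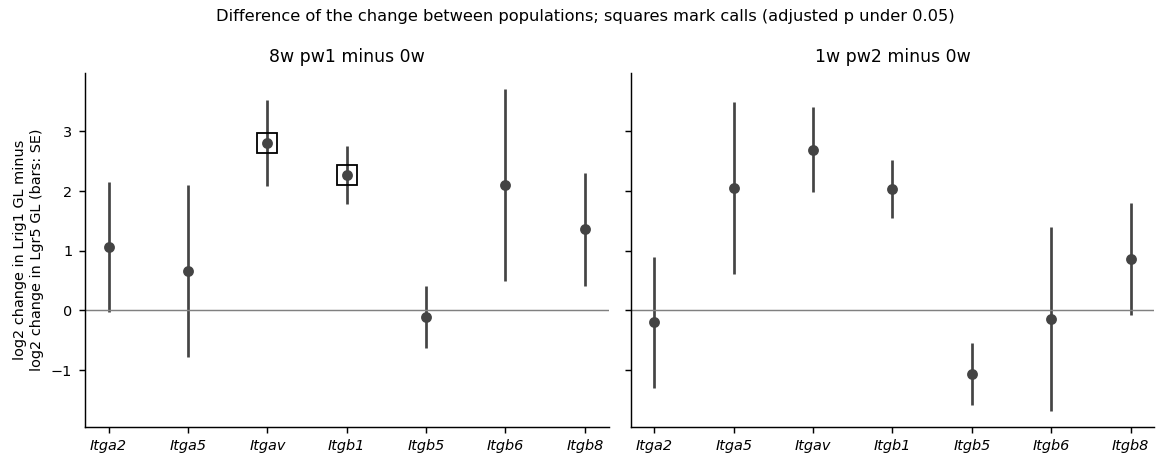
Difference between Lrig1 GL and Lgr5 GL cells in the log2 change from 0w to 8w pw1 (left) and from 0w to 1w pw2 (right) for the 7 genes kept in both tables (points, with bars of 1 SE, from edgeR; squares mark calls). Itgav at 2.80 and Itgb1 at 2.27 are the calls at 8w pw1, and at 1w pw2 the same genes lie at 2.69 and 2.04 without a call.

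Lineage and any difference in library preparation between the populations cannot be told apart in the levels that follow. Set side by side at each time, the populations differed first in Itgb1. At 0w it was lower in Lrig1 GL cells, with a log2 difference of -1.29 (SE 0.34, adjusted p = 0.0356 by edgeR), where 3.12% of all genes differed. At 1w, 2w and 4w pw1 no member differed (background 4.24%, 2% and 3.43%), with 2, 1 and 0 of 7 at an unadjusted p under 0.05 by edgeR. DESeq2 and the likelihood ratio test called Itga2 at 1w pw1, where the difference was 2.57 (SE 0.84, adjusted p = 0.0733 by edgeR's quasi-likelihood test).

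At 8w pw1 Itgav was higher in Lrig1 GL cells by 1.78 (SE 0.51, adjusted p = 0.0187 by edgeR) and Itgb1 by 0.99 (SE 0.34, adjusted p = 0.0495), with 14.4% of genes called. At 1w pw2 Itgav was higher by 1.67 (SE 0.51, adjusted p = 0.0393 by edgeR), while Itgb5 was lower in Lrig1 GL cells, at -1.64 (SE 0.38, adjusted p = 0.0069), with 7.61% of genes called. The order of the populations in Itgb1 was thus turned between 0w and 8w pw1. Itgb6 and Itgb8 at 8w pw1 were at 3.22 (SE 1.20, adjusted p = 0.0679 by edgeR) and 1.72 (SE 0.68, adjusted p = 0.0844), and both passed in DESeq2 and limma-voom.

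Across 13928 genes the difference in level between the populations was also correlated with GC content. The Spearman correlation was -0.604 at 8w pw1, -0.523 at 1w pw2 and -0.101 at 0w. With the trend removed the call of Itgb1 at 0w remained, at -1.23 (adjusted p = 0.0311 by edgeR), and the other 4 ended, with Itgav at 0.94 and 1.09, Itgb1 at 0.36 and Itgb5 at -0.86. The mitochondrial share at 8w pw1 was 10.9 to 14.4% in Lrig1 GL and 2.62 to 3.29% in Lgr5 GL cells, and its part in these results was not tested. The call of Itgb1 at 0w ended without replicate 1 of Lrig1 GL (-0.99, adjusted p = 0.172 by edgeR) and without each Lgr5 GL library of 0w (-1.41 to -1.20, adjusted p 0.0510 to 0.0949). That of Itgb1 at 8w pw1 held without 11 of the 36 libraries, none of them of 8w pw1. That of Itgav at 8w pw1 ended without replicate b of Lrig1 GL or a or b of Lgr5 GL (1.64 to 1.74, adjusted p 0.0589 to 0.0774 by edgeR). That at 1w pw2 ended without each of the 6 libraries of that time (1.44 to 1.91), and that of Itgb5 only without replicate 2 of Lrig1 GL (-1.40, adjusted p = 0.0804).

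**Figure D5:**
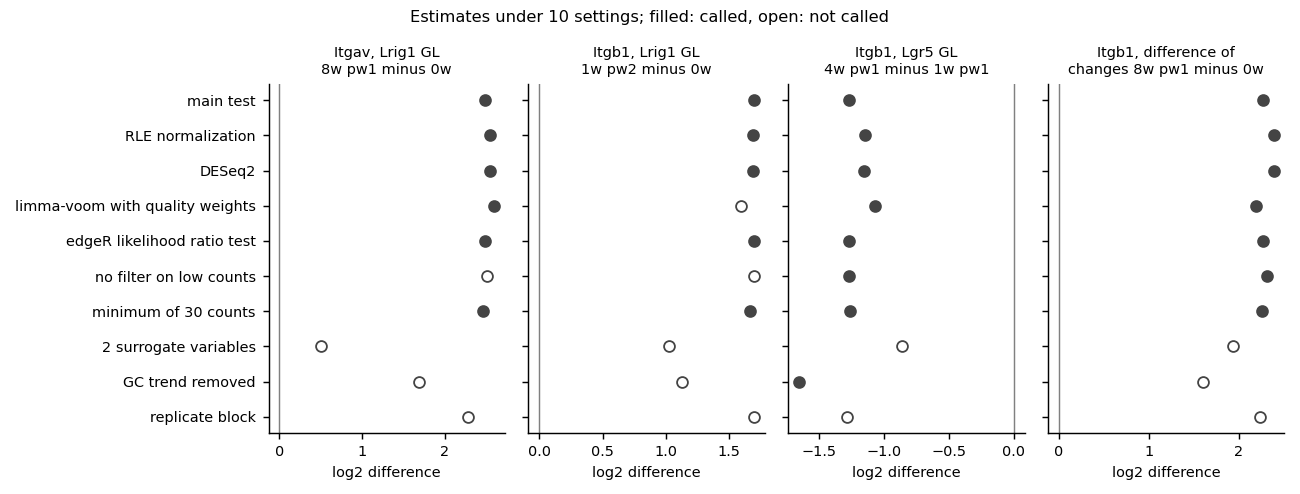
Log2 difference (x axis) of 4 of the calls, each in a panel, under the main test and the 9 alternatives (filled points are calls, open points are not). No value crosses 0, and the lowest values of Itgav and Itgb1 in Lrig1 GL cells, 0.51 and 1.02, come from the fit with 2 surrogate variables.

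The neighbours of these receptors were counted as 3 lists. Of 16 other integrin subunits, 7 were tested for Lrig1 GL and 10 for Lgr5 GL. None passed the time course test in either population (edgeR), with 2 and 3 at an unadjusted p under 0.05. Itga6, the alpha subunit of the hemidesmosome, was nearest in both, with adjusted p of 0.107 (Lrig1 GL) and 0.0544 (Lgr5 GL). Between 1w and 4w pw1 in Lgr5 GL cells Itga6 fell, as Itgb1 did, by 1.29 on the log2 scale (SE 0.28, adjusted p = 0.0266 by edgeR), and was the only one of the 10 called, where 3.15% of all genes were.

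Of 24 genes of the adhesion machinery, which links integrins to actin, 22 and 23 were tested. None passed the time course test (edgeR), with 5 and 6 at an unadjusted p under 0.05, among them Flna, which encodes the actin crosslinker filamin A (adjusted p 0.0688 in Lrig1 GL cells), and Zyx, which encodes the focal adhesion protein zyxin (adjusted p 0.0768 in Lgr5 GL cells). Their median log2 fold change at 8w pw1 in Lrig1 GL cells was -0.34 with 14 of 22 below 0, against -0.01 over all genes. The part of GC content in this value was not tested. Arhgef7, an exchange factor for Rac and Cdc42, had a higher level at 4w pw1, relative to 1w pw1, in Lgr5 GL cells, by 2.46 (SE 0.56, adjusted p = 0.0313 by edgeR), and was the 1 of 23 called there, beside 3.15% of all genes.

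Of 21 genes of extracellular ligands and of the TGF-beta forms that the Itgav receptors release, 16 were tested in Lrig1 GL cells and none passed the time course test (edgeR, 4 at an unadjusted p under 0.05). For Lgr5 GL 20 were tested, 11 had an unadjusted p under 0.05 and 3 were called, Lamb3 and Npnt among them, where 1.13% of all genes were. Lamb3, a laminin chain of the basement membrane, was at -2.06 at 4w pw1 (SE 0.31, adjusted p = 0.0140 by edgeR), as 1 of 20 called against 0w (0.155% of all genes). Npnt, the matrix protein nephronectin, exceeded its 1w pw1 level at 1w pw2 by 1.93 (SE 0.34, adjusted p = 0.0188 by edgeR), as 1 of 2 called of the 20 (0.266% of all genes). Tgfb2 exceeded its level of 1w pw1 at 4w pw1 by 3.21 (SE 0.76, adjusted p = 0.0365 by edgeR), as 1 of 4 called of the 20 (3.15% of all genes). Fn1, the ligand of the Itga5 receptor, averaged 0.435 to 11.4 CPM in the groups of Lrig1 GL cells and 42.8 to 92.4 CPM in those of Lgr5 GL cells.

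The members did not follow each other closely. Over the 18 libraries of a population, which share time points and depth, Pearson's r of log2 CPM between Itgav and Itgb1 was 0.740 for Lrig1 GL and 0.350 for Lgr5 GL. Itga2 and Itga5 had 0.557 in the first and -0.518 in the second. Itgb1 and Itgb5 were at -0.381 and -0.145, and Itgav and Itgb8 at 0.340 and 0.138.

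Among 10379 genes, those most like a member were ranked by the mean of Pearson's r over the 18 libraries of each population. Itgb1 was most like Itga6 (mean r 0.813), with Hif1a (0.739) in its first 3. Itgav was most like Hprt (0.781), Itga2 most like Kmt2a (0.796), Itgb6 most like Ndc1 (0.747) and Itgb8 most like Eea1 (0.691). Itga5 was most like St3gal2 (0.674), with Vegfa (0.622) in its first 3, and Itgb5 most like Nfic (0.648), followed by the clock-controlled genes Dbp (0.641) and Per1 (0.639).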

How the data were processed

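Mini-bulk RNA-seq libraries of sorted tdTomato+ cells were assigned to their population and time by the labels. Per the labels and methods, reads were trimmed, aligned to GRCm38 with HISAT2 and counted per gene with featureCounts on GENCODE annotation. The deposited values are these raw counts, not normalized by the authors, in tables that leave out genes with hardly any counts. For 15 libraries the column names give the labelled replicate, and the other 21 are known by group only and were called a, b and c. The members and the lists of other genes were chosen with earlier results of these data known.

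Counts were analysed per population in R 4.3.3 with edgeR 4.0.16. Genes were kept by filterByExpr (minimum of 10 counts), libraries scaled by TMM, and groups compared by the quasi-likelihood test with Benjamini-Hochberg adjustment over all genes tested. Over the time course and against 0w a call needed an adjusted p under 0.05 with an absolute log2 change of more than 1, and elsewhere the adjusted p alone. CPM are scaled within each population, and populations were compared in 1 fit of all 36 libraries. The SE is the size of the log2 fold change divided by the root of F. An exact permutation test of 3 against 3 libraries cannot go below p = 0.1 and was not used. Members were all named, and of each list the called genes and those with the smallest time course p, with a few ligands and pairs chosen after their values were seen.

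Alternatives were DESeq2 1.42.0, limma-voom 3.58.1 with quality weights, edgeR's likelihood ratio test, RLE scaling, other filters, 2 surrogate variables (sva 3.50.0), a GC trend, a replicate block and each library left out. The scripts were tested on simulated data. Same-numbered libraries did not deviate together (mean r -0.00644 over 33 pairs and 0.00393 over 32 pairs), so no block was used. Gene positions came from GENCODE M21, promoters from RefSeq. A gene of the ligand list is not reported here.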

Additional observations from a re-analysis of the deposited data

Results flagged for a closer look

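Between the populations, the change that 8w pw1 showed against 0w differed, by the test of the difference itself, for Itgav (2.80 on the log2 scale, SE 0.71, adjusted p = 0.0402 by edgeR) and for Itgb1 (2.27, SE 0.48, adjusted p = 0.0201). Of all genes tested, 1.51% were called for this difference. In Lrig1 GL cells all 3 libraries of 8w pw1 lay above all 3 of 0w for both genes, as they did for 14.8% of all genes. In Lgr5 GL cells all 3 libraries of 8w pw1 lay below all 3 of 0w for Itgb1, as for 4.7% of all genes, and for Itgav they overlapped. Both calls ended with the GC trend removed, with 2 surrogate variables and with the replicate block. The mitochondrial share of the Lrig1 GL libraries of 8w pw1, 10.9 to 14.4%, was the highest of the study, and its part in the result was not tested.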

How the results depend on the processing

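No call changed sign under any of the 9 alternatives or with 1 of 36 libraries left out. Of 7012 values of the members under these settings, 6859 kept their side of the threshold, 119 lost it and 34 gained it, and 201 values without a call changed sign. Most of the 7012 belonged to differences that were not calls in the main test, and all 119 losses fell on calls. Each call held under 4 to 7 of the 9 alternatives. In the time course of Lrig1 GL cells 0 calls became 3 with DESeq2, 3 with the likelihood ratio test and 1 with a minimum of 30 counts, and in Lgr5 GL cells 0 became 1 with DESeq2 and 1 with the likelihood ratio test. Against 0w in Lrig1 GL cells 2 calls became 6 with DESeq2, 5 with the likelihood ratio test, 1 with limma-voom, and 0 without a filter, with 2 surrogate variables, with the GC trend removed and with the replicate block. Between 1w pw2 and 1w pw1 in Lgr5 GL cells 0 became 1 with DESeq2 and 1 with the likelihood ratio test. Between 4w and 1w pw1 in Lgr5 GL cells 1 became 0 with 2 surrogate variables and 0 with the block. The 2 differences of change between populations became 4 with DESeq2, 4 with the likelihood ratio test, 1 without a filter, and 0 with 2 surrogate variables, with the GC trend removed and with the block. The 5 differences in level became 8 with DESeq2, 1 with 2 surrogate variables, 1 with the GC trend removed and 0 with the block. With 1 library left out the counts ran from 0 to 1 and 0 to 0 in the time courses of Lrig1 GL and Lgr5 GL cells, from 0 to 3 and 0 to 0 against 0w, from 0 to 1 between 4w and 1w pw1 in Lgr5 GL cells, from 0 to 3 and 2 to 7 between populations in change and level, and stayed at 0 in the others.

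The labels give the groups the same replicate numbers, but for 21 libraries these are not tied to a column, and the deviations of same-numbered libraries had a mean r of -0.00644 and 0.00393. With the replicate block Itgav at 8w pw1 was at 2.27 (adjusted p = 0.119 by edgeR) and Itgb1 at 1w pw2 at 1.69 (adjusted p = 0.0931) in Lrig1 GL cells, and Itgb1 between 4w and 1w pw1 in Lgr5 GL cells at -1.29 (adjusted p = 0.0510). The cause of these shifts was not tested. Counts were low for Itga9, Itga5 in Lrig1 GL and Itgb6, which reached 8 or fewer, 1 and 0 counts in single libraries. Itga2 reached 0 counts in 1 Lgr5 GL library. The part of depth in these low counts was not tested.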
